A study of Mus musculus with 9 samples.

Results

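Mitochondria break down hydrogen sulfide through a short chain of enzymes, and 5 genes of that chain, Sqor, Ethe1, Suox, Mpst and Tst, were followed here in mouse erythroblasts (red cell precursors that still have a nucleus) after a low iron diet. They were chosen by their place in the pathway and with their levels on these arrays in view, so their levels, differences and calls are given as a description, and no p-value of theirs is used as support. The 5 genes, among 14506 genes tested in all, were read by 6 probes of 54697 usable ones, found by the RefSeq transcript each probe was designed on. Tst had 2 probes and the other genes 1 each. All 6 probes were well above background on all 9 arrays, so no member was lost to the filter on dim probes.

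Sulfide is made in cells mainly from cysteine and homocysteine. In the inner mitochondrial membrane, sulfide quinone oxidoreductase (Sqor) oxidises it to a persulfide, usually on glutathione, and hands the electrons to ubiquinone of the respiratory chain. The iron-containing persulfide dioxygenase Ethe1 then makes sulfite, the molybdenum and heme enzyme sulfite oxidase (Suox) turns sulfite into sulfate, and the sulfurtransferases Mpst and Tst (rhodanese) move the persulfide sulfur between carriers. Red cells lose their mitochondria as they mature, and erythroblasts still hold them.

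The cells, called subset II erythroblasts in the labels, came from a sort of bone marrow. The mice were wild-type C57BL/6J, with female as their label. One group had 3 weeks of low iron diet after weaning (LID_W_3w), one had 7 weeks of it (LID_W_7w) and one had normal diet (ND), with 3 arrays each. The sources used here do not say whether a sample held 1 animal or a pool, or how old the normal diet mice were. All p-values and SEs rest on the spread between the 3 replicate arrays within groups, pooled per gene over all groups in the model. The group outside a comparison therefore weighs on it too. In sorted bulk samples, fewer cells of a type and less RNA per cell cannot be told apart.

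Some features of the arrays touch every comparison. No slide or scan held arrays of more than 1 group, so slide and diet cannot be told apart. The share of spots well above background was 56.8% to 70.8% at 3 weeks, 45.2% to 53.6% at 7 weeks and 65.5% to 66.3% on normal diet. Spike-in controls stood 1.10 to 1.57 (log2) above the array's 75th percentile of signal at 3 weeks, 4.44 to 5.35 at 7 weeks and 0.50 to 1.74 on normal diet. Normal diet replicates 1 and 2 went against their label, with the Y-linked gene Eif2s3y at 5.12 and 4.82 (log2 level) against -3.77 on replicate 3, and differences are therefore also given against replicate 3 alone. Eif2s3y was still well above background on replicate 3, but on no low iron array (-6.61 to -3.98). Xist, the female marker, was at -5.59, -5.24 and -0.73 on the normal diet arrays, above background on replicate 3 alone. How fully replicate 3 matches its label was not tested. Erythroid markers were present: 10 of 10 tested erythroblast genes were well above background on all arrays, Hba-a1, Alas2, Klf1 and Gata1 among them. Markers of other marrow cells were detected too, so detection does not show how pure the sort was. On all normal diet arrays, 9 of 9 neutrophil lineage and 9 of 9 monocyte and macrophage markers were well above background. So were 6 of 6 B lineage and 6 of 6 megakaryocyte and platelet markers.

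The promoters of the members differed in base composition. Of the 5 genes, 4 had RefSeq promoter entries, and Tst had none. The 250 bases before the start of Sqor and of Suox are shown because these genes had the largest differences in level, and that of Ethe1, at the more downstream of its 2 starts, because the Ethe1 groups overlapped. Capitals mark matches to CCNCNCCC, a CACCC-type box of the kind that erythroid Krüppel-like factors bind, on either strand; overlapping matches run together.
Sqor, chr2:122771463-122771712, plus strand, GRCm38.p6: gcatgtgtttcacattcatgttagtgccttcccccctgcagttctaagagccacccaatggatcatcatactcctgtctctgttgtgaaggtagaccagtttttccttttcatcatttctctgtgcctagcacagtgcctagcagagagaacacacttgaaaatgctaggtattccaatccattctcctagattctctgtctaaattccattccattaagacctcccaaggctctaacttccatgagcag
Suox, chr10:128673919-128674168, minus strand, GRCm38.p6: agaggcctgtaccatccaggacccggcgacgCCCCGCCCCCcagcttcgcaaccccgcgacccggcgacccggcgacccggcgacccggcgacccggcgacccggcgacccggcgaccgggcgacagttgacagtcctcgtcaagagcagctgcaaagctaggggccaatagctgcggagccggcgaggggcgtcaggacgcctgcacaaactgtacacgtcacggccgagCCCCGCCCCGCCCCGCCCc
Ethe1, chr7:24593658-24593907, plus strand, GRCm38.p6: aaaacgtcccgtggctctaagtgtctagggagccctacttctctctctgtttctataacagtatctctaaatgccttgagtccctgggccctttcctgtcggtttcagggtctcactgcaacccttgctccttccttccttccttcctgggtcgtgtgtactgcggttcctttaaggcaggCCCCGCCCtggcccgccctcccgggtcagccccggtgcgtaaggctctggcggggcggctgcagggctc
The Sqor window was 44.4% G and C and held 0 CpG dinucleotides. The Suox window was 74.4% G and C, more than 95.4% of all windows, with 35 CpG, and the Ethe1 window 60% with 12. The median over 32851 promoter windows of the same length was 52.4% with 6 CpG. The Suox window held 5 CACCC-type matches, the Ethe1 window 1 and the Sqor window 0; 45.9% of all windows held at least 1. None of the 3 windows held a GATA site (AGATAA or AGATAG on either strand, or the same with TGATAA or with TGATAG, found in 26.5% of all windows) or TGACNNNGC, the core of the antioxidant element (10.2%). The 3 start sites of Mpst had windows of 58%, 61.2% and 56.4% G and C, with 1, 2 and 4 CACCC-type matches and no GATA site, and the middle one held 1 TGACNNNGC match. A match says only that the letters are there.

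Sqor, the entry enzyme of the pathway, on chromosome 2, was far lower after 7 weeks of low iron diet than on normal diet. Its level, the log2 signal minus the 75th percentile of the array, was 3.16, 3.17 and 3.97 on the 3 week arrays, -1.84, 0.01 and -1.42 on the 7 week arrays, and 4.97, 4.59 and 4.19 on the normal diet arrays. All 7 week arrays lay below all others, and the 3 week arrays lay between them and the normal diet arrays with no overlap on either side. Separation of 2 groups was common among all genes. All 3 week arrays lay below all normal diet arrays for 31.6% of genes and above them for 18%. For 7 weeks against normal diet these shares were 29.4% and 18.1%, and for 7 against 3 weeks 25.2% and 23.2%. In signal before scaling, Sqor had 14980, 15400 and 28800 units at 3 weeks, 221.1, 832.6 and 405.3 at 7 weeks and 50690, 36030 and 28650 on normal diet. There 3 week replicate 3 passed the lowest normal diet array, while the 7 week arrays stayed more than an order of magnitude below every other array. The log2 difference from normal diet was -1.15 ± 0.49 (SE of limma, n = 3 arrays per group) at 3 weeks and -5.67 ± 0.49, or 50.9-fold lower, at 7 weeks. The difference between 7 and 3 weeks was -4.52 ± 0.49. Of all 14506 genes 8, Sqor among them, were lower by as much at 7 weeks. Against normal diet replicate 3 alone the differences were -0.76 at 3 weeks and -5.28 at 7 weeks.

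Suox, which carries out the last step to sulfate and lies on chromosome 10, was the other gene with a large difference. Its level was 5.03, 4.68 and 5.80 on the 3 week arrays, 0.79, 3.12 and 4.04 on the 7 week arrays, and 6.83, 6.43 and 6.55 on the normal diet arrays. The order of the groups was that of Sqor, again without overlap, but the 7 week arrays were spread widely, with replicate 1 far below the other 2. The SD was 0.57 at 3 weeks, 1.68 at 7 weeks and 0.20 on normal diet. The log2 difference from normal diet was -1.43 ± 0.71 at 3 weeks and -3.96 ± 0.71, or 15.5-fold lower, at 7 weeks. Without 7 week replicate 1 the 7 week difference was -3.03, and against normal diet replicate 3 alone it was -3.90. Suox was among 57 genes lower by as much at 7 weeks. At its brightest the probe reached 23.6% of the saturation value of the scanner, and that of Sqor 6.51%, both on a normal diet array.

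Ethe1, the persulfide dioxygenase between these steps, on chromosome 7, had groups that overlapped. Its level was 2.68, 3.22 and 3.19 on the 3 week arrays, 1.84, 2.74 and 2.82 on the 7 week arrays, and 3.08, 3.09 and 2.35 on the normal diet arrays. No group stood apart from the others. The mean was 3.03 ± 0.30 at 3 weeks, 2.47 ± 0.55 at 7 weeks and 2.84 ± 0.43 on normal diet (SD, n = 3). The log2 difference from normal diet was 0.19 ± 0.36 at 3 weeks and -0.37 ± 0.36 at 7 weeks. The sign was not settled: against normal diet replicate 3 alone the 7 week difference was 0.12, without that replicate the 3 week difference was -0.06, and with no scaling between arrays the 7 week difference was -1.17. That last setting called Ethe1 lower at 7 weeks, whether compared with normal diet or with the 3 week arrays.

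Of the sulfurtransferases, Mpst, on chromosome 15, makes a persulfide from mercaptopyruvate and was lower at 7 weeks. Its level was 3.92, 3.63 and 6.07 on the 3 week arrays, 3.13, 2.85 and 4.52 on the 7 week arrays, and 5.64, 5.70 and 5.95 on the normal diet arrays. All 7 week arrays lay below all normal diet arrays, while at 3 weeks replicate 3 lay above every normal diet array and the other 2 far below. The log2 difference from normal diet was -1.23 ± 0.65 at 3 weeks and -2.26 ± 0.65, or 4.80-fold lower, at 7 weeks. Without 3 week replicate 3 the 3 week difference was -1.99 and the difference between 7 and 3 weeks was -0.27, against -1.04 ± 0.65 with it. Against normal diet replicate 3 alone the differences were -1.42 at 3 weeks and -2.45 at 7 weeks.

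Tst, also on chromosome 15, passes sulfur from thiosulfate to acceptors such as cyanide, and its probes disagreed. By the brighter probe the level was 1.08, 1.34 and 0.63 at 3 weeks, 1.89, 1.86 and 1.64 at 7 weeks, and 0.27, 1.26 and 0.55 on normal diet. The 7 week arrays lay above all others, and the other groups overlapped. By the dimmer probe it was -1.05, -0.53 and -0.45 at 3 weeks, -0.38, -0.94 and 0.25 at 7 weeks, and -0.38, 0.18 and -0.60 on normal diet, with all groups overlapping. The log2 difference between 7 weeks and normal diet was 1.11 ± 0.33 by the brighter probe, or 2.15-fold higher, and -0.09 ± 0.37 by the dimmer one. At 3 weeks it was 0.33 ± 0.33 and -0.41 ± 0.37. The 7 week difference of the brighter probe was 0.30 with no scaling between arrays and 0.51 with the mean of both probes. Its 3 week difference had the other sign with that mean (-0.04), as its difference between 7 and 3 weeks did with no scaling (-0.19, against 0.78 ± 0.33).

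**Figure D1:**
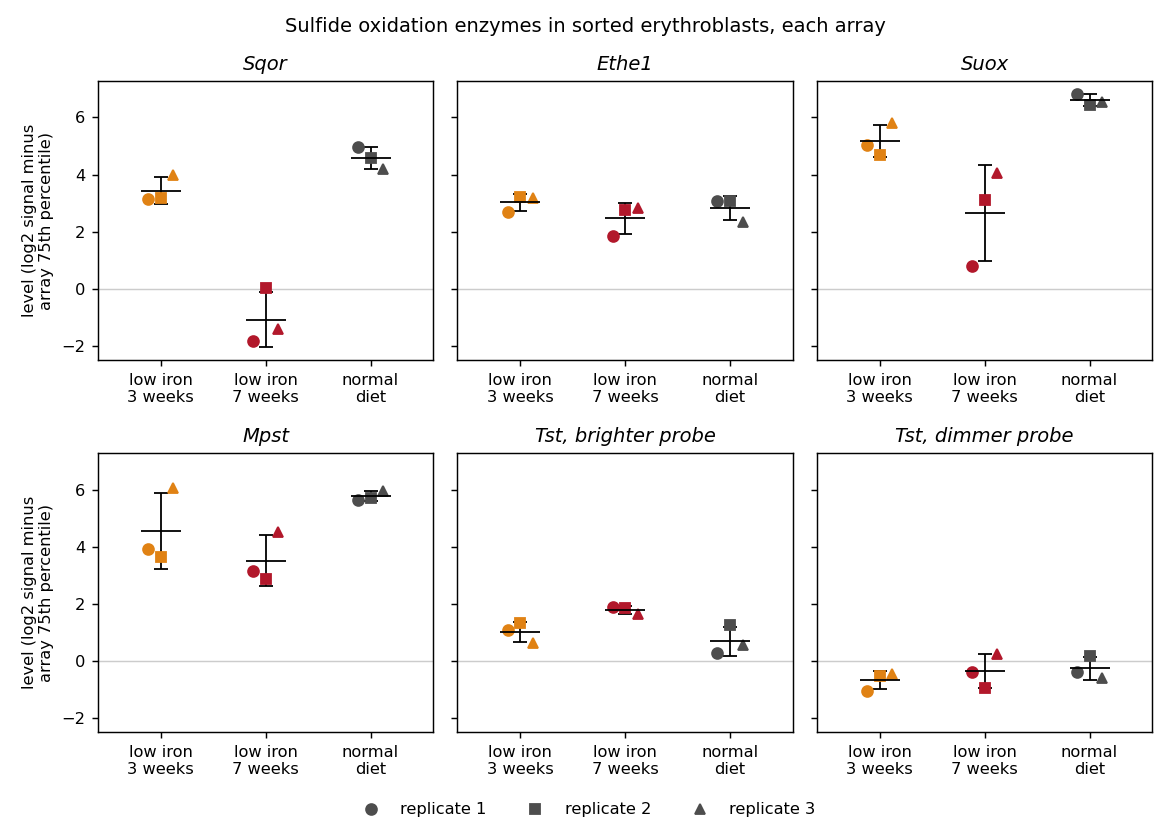
Level of each probe (vertical axis, log2 signal relative to the 75th percentile of the array) on the 9 arrays, grouped by 3 weeks of low iron diet, 7 weeks of low iron diet and normal diet; points are arrays, horizontal marks the mean and bars the SD (n = 3). The Sqor and Suox groups do not overlap, the Ethe1 groups do, and 3 week replicate 3 of Mpst (6.07) lies above the normal diet arrays.

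Set against all genes, the members spread over a wide range of differences. A gene was called when its adjusted p in limma (Benjamini-Hochberg over all genes) was under 0.05. At 3 weeks limma called 0 of the 5, higher or lower, and 1 had an unadjusted p under 0.05; 7.88% of all genes were called lower and 3.52% higher. At 7 weeks 3 were called lower than on normal diet, Sqor, Suox and Mpst, and 1 higher, Tst by its brighter probe; 18.7% of all genes were called lower and 10.7% higher. Between 7 and 3 weeks 2 were called lower, Sqor and Suox, and 0 higher; 19.6% of all genes were called lower and 17.6% higher. Since the genes were chosen with these differences known, nothing is read from the counts. The median difference of the 5 genes was -1.15 at 3 weeks, -2.26 at 7 weeks and -1.04 between 7 and 3 weeks, beside -0.17, -0.26 and -0.13 over all 14506 genes. Both comparisons with normal diet share its 3 arrays.

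**Figure D2:**
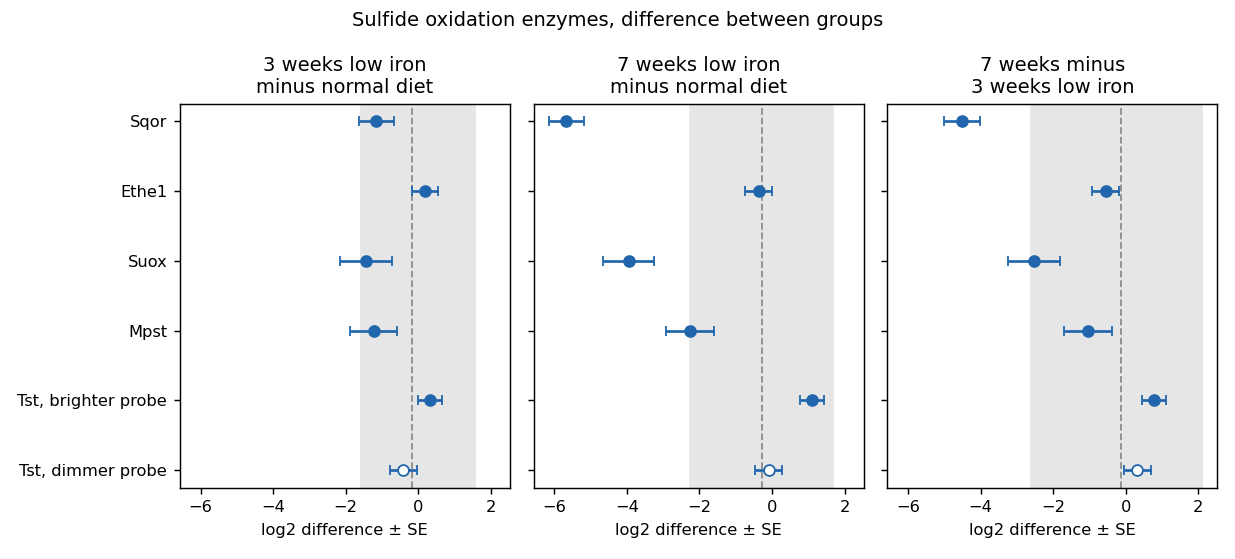
Log2 difference between groups (horizontal axis, points) with its SE (bars) for each probe in the 3 comparisons; the open point is the dimmer Tst probe, the grey band spans the 5th to the 95th percentile of all 14506 genes and the dashed line is their median. At 7 weeks Sqor (-5.67) and Suox (-3.96) lie below the band, which starts at -2.27.

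How the members' calls varied with single arrays is given as a description. Sqor and Suox were called against normal diet in all 9 fits that left out 1 array, whereas Mpst was called in 4 and Tst in 5. Mpst lost its call without any 1 normal diet array or without 7 week replicate 1 or 2, at differences of -2.33, -2.30, -2.17, -2.08 and -1.94. Tst lost it without normal diet replicate 1 or 3, 7 week replicate 2 or 3 week replicate 1, at 0.89, 1.03, 1.07 and 1.11. Between 7 and 3 weeks, Sqor was called in all 9 fits and Suox in 7, the exceptions being those without 3 week replicate 1 or 3.

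Within the low iron groups the members shared some of their spread. On 3 week replicate 3, Sqor, Suox and Mpst all stood higher than on the other 2 arrays of that group. On 7 week replicate 1, Sqor, Suox and Ethe1 were each at their lowest of all arrays. These arrays also had the highest and the lowest share of spots well above background, 70.8% and 45.2%, and the part of that in the levels was not tested. Over the 9 arrays, Pearson's r between the levels was 0.905 for Sqor and Suox, 0.838 for Suox and Mpst and 0.713 for Sqor and Mpst. After the group means were taken off, these values were 0.505, 0.569 and 0.0896. These are descriptions over 9 arrays that share slides and groups.

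The genes whose levels were most like those of a member over the 9 arrays were found by Pearson's r among all genes tested. For Sqor they were Nxt2, an mRNA export factor (r = 0.986), Gatm, which makes the creatine precursor (0.985), and Ttll1, of tubulin modification (0.983). Gatm came nearest in size, at -0.94 at 3 weeks and -5.05 at 7 weeks from normal diet, with Nxt2 at -0.49 and -2.64. For Suox they were Tigd3 (0.997), Haus4, of the augmin complex of the spindle (0.996), and Prim2, the large primase subunit (0.993). Prim2 was at -0.72 at 3 weeks and -1.99 at 7 weeks. For Mpst they were Rab5c, of early endosomes (0.982), Pigt (0.981) and Mfap3 (0.981). For Ethe1 they were Timm9, a chaperone of mitochondrial import (0.972), Dhx29 (0.95) and Spout1 (0.949), and for Tst they were Klk1b9 (0.992), Drc3 (0.985) and Rdh16f2 (0.985). Genes that differ between the groups in the same order have a high r over the same 9 arrays, so these values carry no p.

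**Figure D3:**
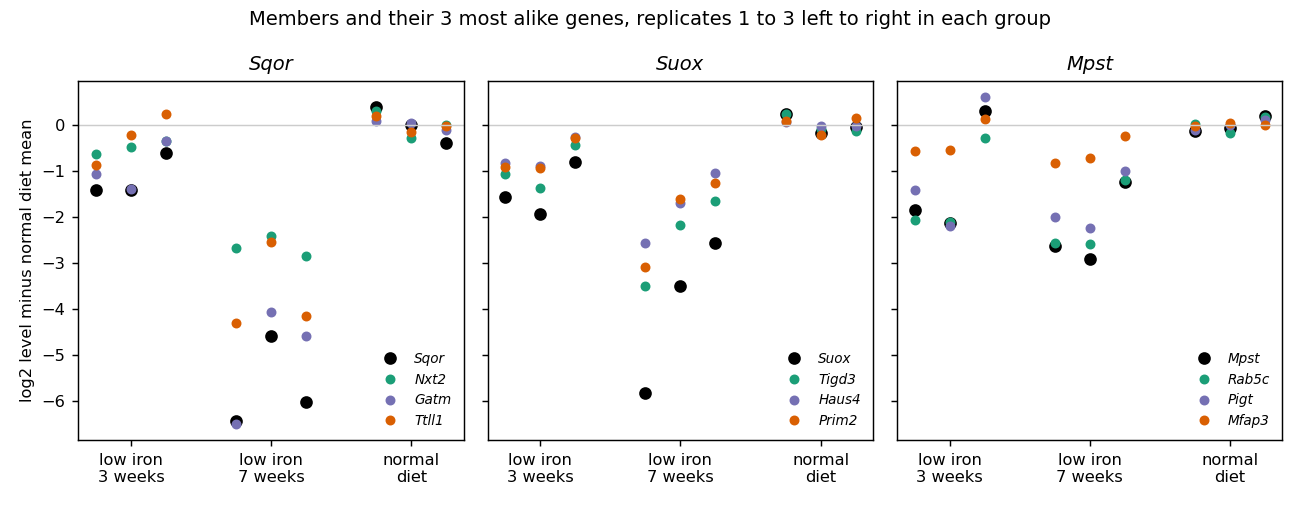
Log2 level minus the normal diet mean (vertical axis) of Sqor, Suox and Mpst (black) and of the 3 genes most like each (colours), on replicates 1 to 3 in turn of 3 weeks of low iron diet, 7 weeks of low iron diet and normal diet; each point is 1 array. Gatm follows Sqor most closely in size at 7 weeks.

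Around the 5 enzymes, 74 partner genes in 9 lists were followed, of which 67 were tested, and their differences carry adjusted p-values of limma over all genes. The lists were also chosen with earlier results of these data known, so these p-values describe the arrays and give no independent support. At 3 weeks 3 of the 67 rose and 6 fell, and at 7 weeks 8 rose and 13 fell. As shares these are 4.48% and 8.96% at 3 weeks, beside 3.52% and 7.88% of all genes, and 11.9% and 19.4% at 7 weeks, beside 10.7% and 18.7%. The same shares of all genes stand beside the counts by list below, which rest on 4 to 12 tested genes each and were not tested as sets. Mocs3 counts both for the molybdenum cofactor and for the rhodanese domain. Their median difference was -0.09 at 3 weeks and -0.50 at 7 weeks. Against normal diet replicate 3 alone, where the spread comes from the low iron groups, limma called 0 of 14506 genes at 3 weeks and 1 at 7 weeks, with 0 partner genes among them, and 6 and 14 of the 67 had an unadjusted p under 0.05. The 9 and 21 calls kept their sign there, with moves of at most 0.40 and 0.44 on the log2 scale. With no scaling between arrays, the median of all genes at 7 weeks was -1.07 in place of -0.26, and every 7 week difference below lay lower by the same amount; the 8 genes that rose stayed above 0, at 0.05 to 1.27.

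Among genes that make sulfide or cysteine persulfide or act upstream of them, 2 of 8 rose at 3 weeks and none fell, and 2 rose and 1 fell at 7 weeks. Cth, cystathionine gamma-lyase, which releases cysteine and can make sulfide, had levels of -0.43, -0.34 and -0.89 at 3 weeks, -2.44, -1.28 and -3.45 at 7 weeks, and -3.96, -4.56 and -3.86 on normal diet. All low iron arrays lay above all normal diet arrays, and the 3 week arrays highest. Cth rose by 3.57 ± 0.50 at 3 weeks (adjusted p = 0.00926) and by 1.74 ± 0.50 at 7 weeks (adjusted p = 0.0314). Cbs, cystathionine beta-synthase, which feeds Cth, rose at 7 weeks (1.80 ± 0.38, adjusted p = 0.00997) and was at 0.44 ± 0.38 at 3 weeks. Ahcy, which frees homocysteine, rose at 3 weeks (1.37 ± 0.38, adjusted p = 0.05, just under the threshold before rounding) and fell at 7 weeks (-1.50 ± 0.38, adjusted p = 0.0204), but another of its probes was at 0.83 and -0.06.

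Of the genes that oxidise cysteine towards taurine, none of 4 passed at 3 weeks and 2 fell at 7 weeks. Ado, the iron-dependent cysteamine dioxygenase, was at 0.52, 0.35 and 1.02 at 3 weeks, -5.16, -1.71 and -0.80 at 7 weeks, and 0.91, 0.01 and 0.34 on normal diet. It fell at 7 weeks (-2.97 ± 0.93, adjusted p = 0.0413), with replicate 1 far below the rest, and was at -1.67 without that array. The Ado call was lost with quantile normalization, with the percentile over probes detected on all arrays and with only the 6 arrays compared. Csad, which decarboxylates cysteine sulfinate, fell at 7 weeks (-2.52 ± 0.67, adjusted p = 0.0228). At 3 weeks Cdo1, cysteine dioxygenase, was at 1.66 ± 0.47 (adjusted p = 0.0523) and Csad at -1.10 ± 0.67 (adjusted p = 0.302).

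Of 6 genes for the molybdenum cofactor, which Suox needs, 2 fell and none rose at 3 weeks, and 2 fell and 1 rose at 7 weeks. Mocs1, which starts cofactor synthesis, had levels of 1.12, 0.84 and 1.60 at 3 weeks, 2.21, 2.09 and 2.80 at 7 weeks, and 3.63, 3.69 and 3.72 on normal diet. The 3 groups did not overlap, and here the 3 week arrays were lowest, unlike for Suox. Mocs1 fell by 2.49 ± 0.30 at 3 weeks (adjusted p = 0.00794) and also at 7 weeks (-1.31 ± 0.30, adjusted p = 0.0134). Mocs3, which carries a rhodanese domain and hands sulfur to the cofactor, fell at 3 weeks (-2.48 ± 0.34, adjusted p = 0.00914) and was at -0.77 ± 0.34 at 7 weeks. Nfs1, the cysteine desulfurase that supplies this sulfur and that of iron-sulfur clusters, fell at 7 weeks (-1.37 ± 0.29, adjusted p = 0.0102). Mocs2, of molybdopterin synthase, rose then (0.89 ± 0.29, adjusted p = 0.0467), but was at 0.08 with no scaling between arrays.

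Among the other genes with a rhodanese domain, the fold of Tst and Mpst, 2 of 8 fell at 3 weeks, 3 fell at 7 weeks and none rose. At 3 weeks these were Mocs3 and Tstd2 (-2.89 ± 0.36, adjusted p = 0.00794, another probe at -2.29). Tstd2 was at -0.07 ± 0.36 at 7 weeks, but at -2.24 by the other probe. At 7 weeks Tstd3 fell (-2.25 ± 0.36, adjusted p = 0.00422), with levels of 3.19, 3.35 and 3.66 at 3 weeks, 1.13, 0.75 and 2.02 at 7 weeks, and 3.63, 3.24 and 3.77 on normal diet. Its 7 week arrays lay below all others, while the 3 week and normal diet arrays overlapped. The other 2 are protein phosphatases: Cdc25c, which acts at mitotic entry, fell by 2.93 ± 0.55 (adjusted p = 0.00674), and Dusp1, which acts on MAP kinases, fell too (-1.43 ± 0.27, adjusted p = 0.00674).

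Few genes of the ubiquinone side passed. Of 12 tested genes that make ubiquinone, the electron acceptor of Sqor, none passed at 3 weeks and 1 rose at 7 weeks, Coq8a, an atypical kinase of ubiquinone synthesis (1.63 ± 0.46, adjusted p = 0.0281). At 3 weeks Coq8a was at 1.61 ± 0.46 (adjusted p = 0.0521) and Pdss2, of the side chain synthase, at 1.79 ± 0.61 (adjusted p = 0.0877). Of 6 other genes whose enzymes pass electrons to ubiquinone, none passed at 3 weeks and 1 rose at 7 weeks, Gpd2, the mitochondrial glycerol phosphate dehydrogenase. Gpd2 had levels of 0.54, 0.67 and 0.57 at 3 weeks, 2.47, 1.54 and 2.00 at 7 weeks, and 0.57, 0.90 and 0.98 on normal diet, a rise of 1.18 ± 0.29 at 7 weeks (adjusted p = 0.018), with the 7 week arrays above all others. At 3 weeks Prodh was at 1.74 ± 0.75 (adjusted p = 0.158) and Etfdh at -0.71 ± 0.43 (adjusted p = 0.301).

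The thiol acceptors of persulfide sulfur moved in both directions: 1 of 10 rose and 2 fell at 3 weeks, and 1 rose and 1 fell at 7 weeks. Gss, glutathione synthetase, had levels of 3.58, 4.01 and 3.38 at 3 weeks, 4.58, 3.63 and 4.47 at 7 weeks, and 2.27, 2.01 and 2.16 on normal diet. It rose at both times, by 1.51 ± 0.32 (adjusted p = 0.0231) and 2.08 ± 0.32 (adjusted p = 0.00384), with every low iron array above every normal diet array. Gclc, the catalytic subunit of the preceding and rate-limiting step, fell at 7 weeks (-1.42 ± 0.28, adjusted p = 0.00875). At 3 weeks Txn1, thioredoxin, fell (-1.10 ± 0.25, adjusted p = 0.0271), as did Glrx2, a mitochondrial glutaredoxin (-1.15 ± 0.30, adjusted p = 0.0424), whose other probe was at 0.20. With quantile normalization Txn1 was at -0.53.

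Of 8 tested genes that carry thiosulfate, sulfite or sulfate or activate and use sulfate, 3 fell and none rose at 7 weeks, and none passed at 3 weeks. Slc25a10, the mitochondrial dicarboxylate carrier, which also moves thiosulfate, had levels of -0.32, 0.58 and 0.78 at 3 weeks, -3.12, -1.70 and -0.85 at 7 weeks, and 0.40, 0.20 and 0.53 on normal diet. Its 7 week arrays lay below all others (-2.27 ± 0.54, adjusted p = 0.0158), and the 3 week arrays overlapped with normal diet. Slc26a1, a sulfate exchanger of the plasma membrane, fell by 2.44 ± 0.47 (adjusted p = 0.00738). Slc26a11, another sulfate transporter, was not well above background on any 7 week array. Its fitted difference was -2.17 (adjusted p = 0.00864), from measured means of -5.17 at 7 weeks and -3.00 on normal diet. With another background correction it was -0.59, and the call was lost there and with the submitters' values. As a bound, Slc26a11 was at least 1.46-fold lower at 7 weeks. Such a bound divides the brighter group's mean by a floor for the dim group: on each array, the dimmest signal that still counts as well above background, or that of the probe if higher. At 3 weeks Sult1a1, a sulfotransferase, was at 0.99 ± 0.36 (adjusted p = 0.105) and Bpnt1, which clears the spent sulfate donor, at 0.97 ± 0.86 (adjusted p = 0.487).

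Of 6 genes that bind or handle sulfide outside the pathway, 1 fell at 3 weeks, and 2 rose and 1 fell at 7 weeks. Selenbp1, the methanethiol oxidase, which itself releases sulfide, had levels of 4.89, 5.27 and 5.47 at 3 weeks, 3.65, 3.30 and 4.75 at 7 weeks, and 6.01, 5.84 and 5.84 on normal diet. The order of the groups was that of Sqor and Suox, with no overlap, and the 7 week fall was -2.0 ± 0.38 (adjusted p = 0.0072). Cygb, cytoglobin, fell at 3 weeks (-1.01 ± 0.25, adjusted p = 0.0345), and was at -0.57 with another background correction. Cox4i1, of cytochrome oxidase, the respiratory enzyme that sulfide inhibits, rose at 7 weeks (1.05 ± 0.25, adjusted p = 0.015), as did the beta globin gene Hbb-bt (0.85 ± 0.25, adjusted p = 0.0328). Both were bright, at up to 44.6% and 87.9% of the saturation value, and before scaling between arrays their differences were 0.25 and 0.05.

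**Figure D4:**
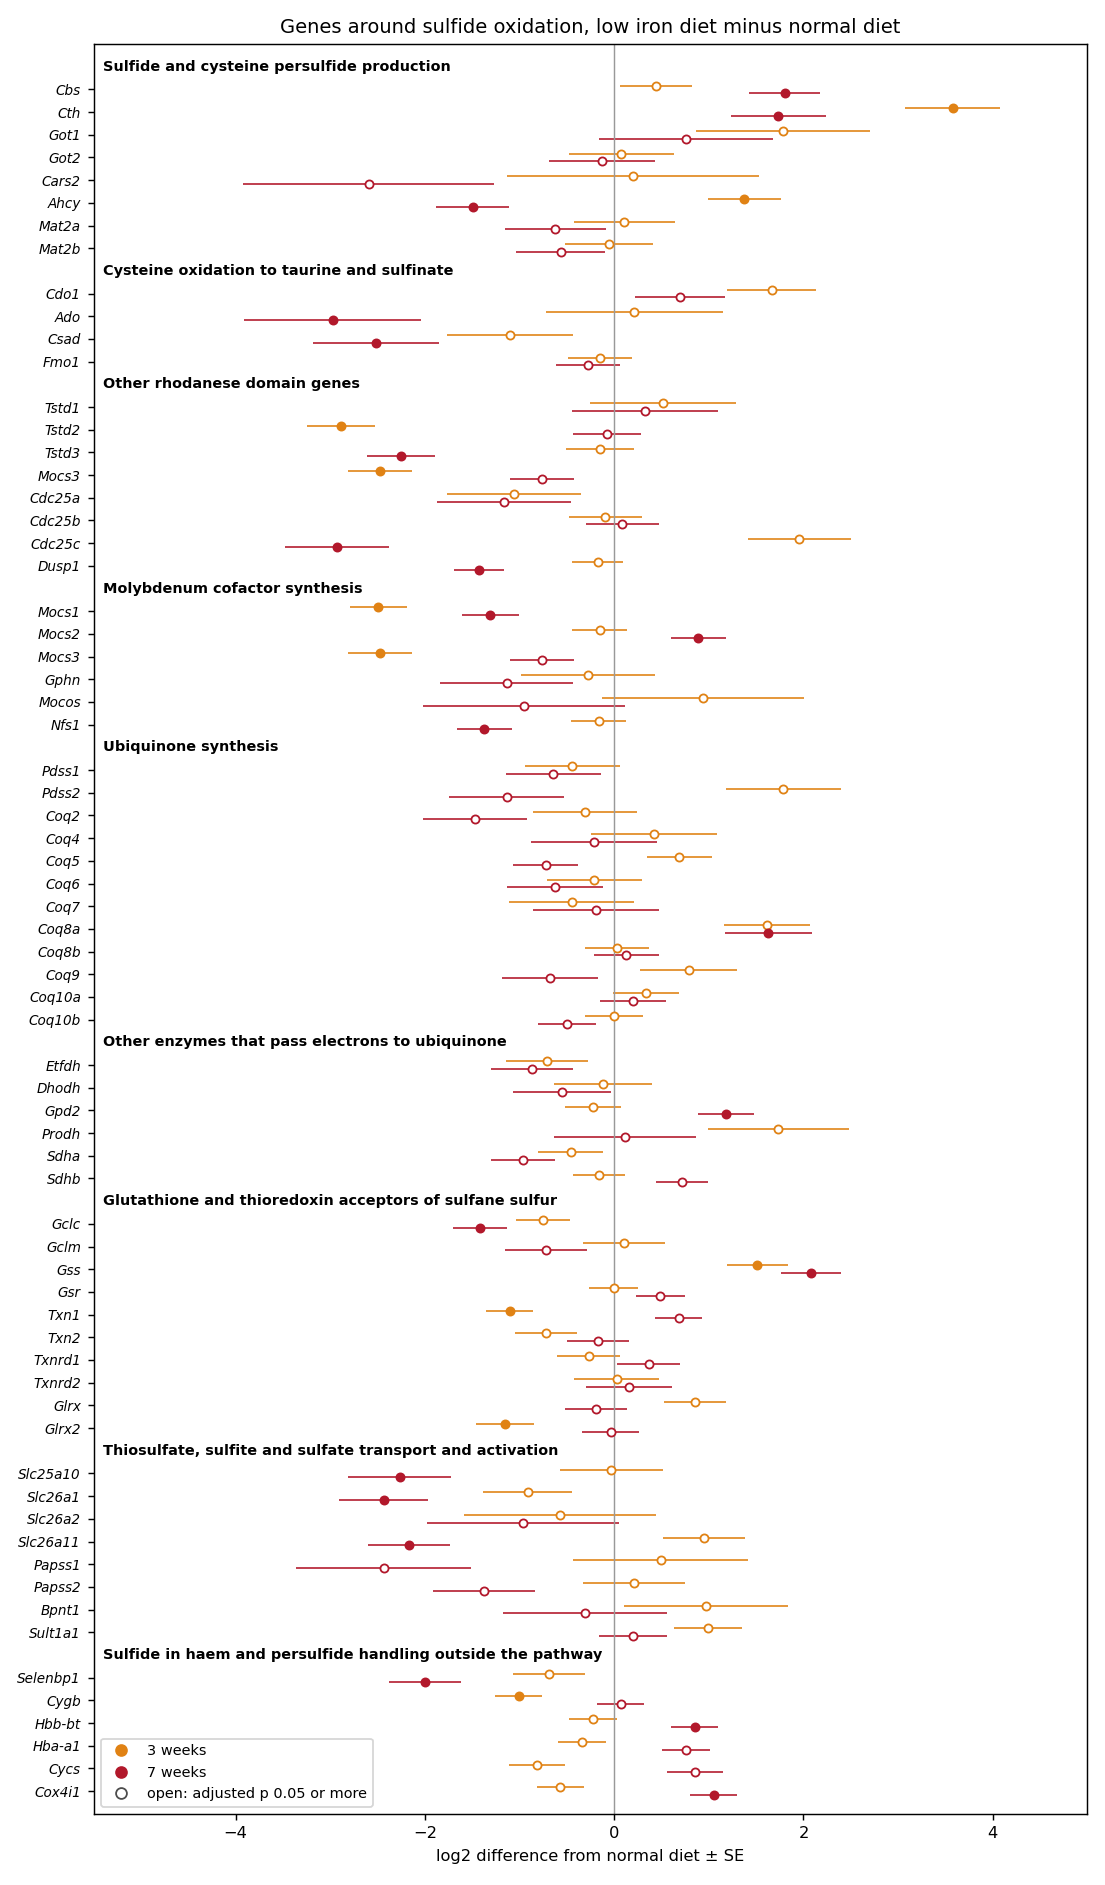
Log2 difference from normal diet (horizontal axis) with its SE for the 67 tested partner genes by list, at 3 weeks (orange) and 7 weeks (red) of low iron diet; filled points have an adjusted p under 0.05, Mocs3 stands in 2 lists, and the Slc26a11 point at 7 weeks is a fitted value, not a bound. Cth at 3 weeks (3.57) is the highest point, and Ado (-2.97) and Cdc25c (-2.93) at 7 weeks are the lowest filled ones.

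Leaving out 1 array at a time ended many of these calls. Of the 9 calls at 3 weeks, those of Cth, Tstd2, Mocs3 and Mocs1 held in all 9 fits. Ahcy, Txn1 and Cygb lost theirs without any 1 of the 6 arrays compared, and Gss and Glrx2 without any of these except 3 week replicate 3, with highest adjusted p-values of 0.0911 to 0.162. Of the 21 calls at 7 weeks, 10 held in all 9 fits: Cbs, Cdc25c, Tstd3, Dusp1, Nfs1, Gss, Gclc, Slc26a1, Slc26a11 and Selenbp1. Ahcy, Mocs1 and Slc25a10 lost theirs without normal diet replicate 1 or 3, Gpd2 without replicate 1 and Cox4i1 without replicate 3. Cth and Csad lost theirs without any 1 normal diet array or 7 week replicate 2, Coq8a without any of these or 7 week replicate 3, and Ado without any 1 array of the other 2 groups. Mocs2 and Hbb-bt lost theirs in 7 and 6 of the 9 fits. The highest adjusted p-values of these 11 lay between 0.051 and 0.142.

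Markers of other marrow cells also differed between the groups. The summed level (linear, relative to the 75th percentile) of 9 tested monocyte and macrophage markers was 65.0 to 90.3 at 3 weeks, 16.9 to 22.2 at 7 weeks and 33.3 to 49.8 on normal diet, with all 9 well above background on every array of each group 4 of them called higher at 3 weeks and 4 lower at 7 weeks. That of 6 mast cell, basophil and eosinophil markers was 0.577 to 24.5 at 3 weeks, 0.535 to 0.688 at 7 weeks and 13.4 to 24.1 on normal diet. Of these, Cpa3, Mcpt8, Fcer1a and Epx were not well above background on any 7 week array. The 3 week arrays had 0.577, 15.5 and 24.5 for this list. The sum of 9 neutrophil lineage markers was 272 to 442 at 3 weeks, 348 to 556 at 7 weeks and 213 to 587 on normal diet. In the same order, that of 6 B lineage markers was 9.21 to 22.3, 3.44 to 9.45 and 4.27 to 6.97. For 7 T and NK markers it was 17.7 to 24.1, 22.3 to 37.9 and 17.9 to 20.3. For 6 megakaryocyte and platelet markers it was 24.2 to 69.6, 11.8 to 42.8 and 23.8 to 56.6. Of the 10 erythroblast markers, 3 were called higher and 2 lower at 7 weeks and none at 3 weeks. Their sum, which the brightest globin genes weigh on most, was 1750 to 1860 at 3 weeks, 2560 to 3950 at 7 weeks and 2010 to 2160 on normal diet. The part of these cells in the differences of Sqor, Suox and Mpst was not tested.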

How the data were processed

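Each sample was hybridised to a 1-colour Agilent array, and the deposited scanner files hold an intensity per spot, background-subtracted by Feature Extraction 10.7.3.1 per the file headers. The submitters' series table holds log2 values; per the values deposited, each probe is centred on its median over the arrays, and how it was otherwise normalized is not given in the sources used here. It served as an alternative.

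Control spots and outlier spots were left out, spots of a probe were averaged, and the level was log2 of the processed intensity minus the array's 75th percentile. Of 55681 probes, 984 had no usable spot. RefSeq accessions named 26043 probes through a GRCm38.p6 gene table, used for names and chromosomes. Probes entered the test if some group had all 3 of its arrays well above background for them, and the brightest probe stood for its gene (14506 genes). All 9 arrays entered 1 model (lmFit and eBayes of limma 3.58.1, R 4.3.3) with no covariate, and p-values were adjusted by Benjamini and Hochberg over all genes at a threshold of 0.05. The procedure was tested on simulated data. The number of arrays limits the precision.

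The 5 genes and all gene lists were chosen with earlier results of these data known. Named were all members, up to 4 called partner genes per list, direction and comparison with normal diet (the 2 with the largest difference where none was called), and the 3 genes most like each member. Alternatives changed the background correction, the normalization, the filter, the probe rule, the source and the arrays. The normexp alternative (offset 50) used the median signal, since the files have no mean signal. The alternative with no scaling between arrays was chosen after seeing the data. Replicates with the same number did not deviate together (r of -0.17 to 0.29 over 9 pairs of arrays), so the numbers were not taken to pair the samples.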

Additional observations from a re-analysis of the deposited data

Results flagged for a closer look

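Between 7 and 3 weeks of low iron diet, 14 partner genes were higher and 17 lower by the test of the difference itself (limma, adjusted over all genes, n = 3 arrays per group). Of the 67 tested these are 20.9% and 25.4%, beside 17.6% and 19.6% of all genes. The 23 of these partner genes that the comparisons with normal diet name are given here. Both effects share the normal diet arrays, so the test compares the 7 week with the 3 week arrays. Values are log2 differences, 7 minus 3 weeks. With no scaling between arrays, where the median of all genes was -1.09 in place of -0.13, the 11 that were higher lay at 0.08 (Mocs2) to 1.85 (Tstd2), with Hbb-bt at 0.11, Cygb at 0.11, Glrx2 at 0.15 and Mocs1 at 0.22.

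Of genes that make sulfide, act upstream of it or oxidise cysteine, Cbs was higher at 7 than at 3 weeks (1.36, adjusted p = 0.0208). Cth (-1.84, adjusted p = 0.0196), Ahcy (-2.87, adjusted p = 0.000978) and Ado (-3.19, adjusted p = 0.0257) were lower. The other probe of Ahcy was at -0.88. Of the molybdenum cofactor genes, Mocs1 (1.18, adjusted p = 0.0146), Mocs2 (1.04, adjusted p = 0.0211) and Mocs3 (1.71, adjusted p = 0.00487) were higher and Nfs1 was lower (-1.21, adjusted p = 0.0114). The other probe of Mocs2 was at -0.20. Of the rhodanese domain genes, Tstd2 was higher (2.81, adjusted p = 0.000845; its other probe was at 0.05), and Tstd3 (-2.10, adjusted p = 0.00265), Cdc25c (-4.88, adjusted p = 0.000531) and Dusp1 (-1.25, adjusted p = 0.00668) were lower.

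On the ubiquinone side Gpd2 was higher (1.41, adjusted p = 0.00621) and Pdss2 lower (-2.92, adjusted p = 0.00608). Txn1 (1.78, adjusted p = 0.00114) and Glrx2 (1.11, adjusted p = 0.0196) were higher. Of the transporters, Slc25a10 (-2.24, adjusted p = 0.0119) and Slc26a1 (-1.52, adjusted p = 0.0312) were lower. Slc26a11, not well above background on any 7 week array, was at least 2.82-fold lower (fitted difference of -3.12, adjusted p = 0.00111). Cox4i1 (1.62, adjusted p = 0.00164), Hbb-bt (1.08, adjusted p = 0.00994) and Cygb (1.08, adjusted p = 0.00998) were higher and Selenbp1 was lower (-1.31, adjusted p = 0.0253).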

How the results depend on the processing

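Over 20 alternatives Sqor lay between -6.47 and -5.28 and Suox between -4.76 and -3.03 at 7 weeks against normal diet. Some of these could not move the values by construction, since each gene has 1 probe, well above background on all arrays. They were the changed probe filters, the mean over probes, the replicate block, only the 6 arrays compared and leaving out a 3 week array. In the others, direction and size of these large differences held within the ranges given. Counts are given as higher and lower. With all arrays limma called 0 and 0 members at 3 weeks, 1 and 3 at 7 weeks, and 0 and 2 between 7 and 3 weeks. Leaving out 1 array gave 0 and 0 to 1 at 3 weeks, 0 to 1 and 2 to 3 at 7 weeks, and 0 and 1 to 2 between 7 and 3 weeks. At 3 weeks 2 were called lower with only the 6 arrays compared. That setting called 4416 of all 14506 genes at 3 weeks, in place of 1653. At 7 weeks the 1 higher call, Tst, became 0 with the mean over probes, with no scaling and with only the 6 arrays compared. Mpst lost its lower call at 7 weeks with quantile normalization, at a difference of -1.93. Without normal diet replicates 1 and 2 there were 0 and 0 at 7 weeks. Between 7 and 3 weeks 1 was lower without those replicates and with only the 6 arrays compared, and 4 with no scaling. With no scaling 4 were lower at 7 weeks too, Ethe1 being the one added.

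Partner genes called were 3 and 6 at 3 weeks, 8 and 13 at 7 weeks, and 14 and 17 between 7 and 3 weeks. Leaving out 1 array gave 1 to 7 and 3 to 8, 3 to 9 and 8 to 18, and 10 to 16 and 10 to 20. At 3 weeks the higher count was 7 with normexp, 5 with the percentile over probes detected on all arrays, 13 with only the 6 arrays compared and 0 without normal diet replicates 1 and 2, and the lower count was 3, with that percentile or no scaling, and 0 without those replicates. At 7 weeks it was 0 and 0 without those replicates, 2 and 27 with no scaling, and 4 higher with only the 6 arrays compared. Between 7 and 3 weeks it was 8 higher with quantile normalization, 2 and 33 with no scaling, and 10 lower with only probes detected on all arrays, without those replicates or with only the 6 arrays compared. The cause of these moves was not tested, except that fewer arrays and genes enter by construction. Over all genes, no scaling gave 454 and 6646 calls at 7 weeks in place of 1559 and 2719. With only the 6 arrays compared, 4416 of all genes were called at 3 weeks in place of 1653.

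With the replicate block, the members' counts were 0 and 0, 1 and 3, and 0 and 2, and the partner counts 4 and 5, 7 and 13, and 13 and 16, each within 1.5 times of the counts without it. Signal over background limits the dim genes at 7 weeks, as for Slc26a11, and 3 arrays per group limit the rest.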
